A study of Mus musculus with 6 samples.

Results

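Chemokines are small secreted proteins that guide leukocytes along concentration gradients by way of receptors coupled to G proteins. The 10 ligands described here were chosen by symbol from 23473 gene-symbol rows of the deposited table, and all 10 had a row. Of these, 8 are ligands that glia, endothelium and neurons can switch on during injury (Ccl2, Ccl3, Ccl4, Ccl7, Ccl12, Cxcl1, Cxcl2 and Cxcl10), here called inducible, and 2 are made in healthy brain (Cxcl12 and Cx3cl1), here called constitutive. The libraries came from ribosome-depleted total RNA of bulk tissue labelled brain, from adult male C57BL/6 mice of 8 to 9 weeks. The 3 sham libraries came from mice operated under the same chloral hydrate anaesthesia without the filament. The 3 ischemia/reperfusion (I/R) libraries came from mice with a filament placed in the right carotid circulation for 60 min, which blocks the middle cerebral artery (a model of transient ischemic stroke), followed by 6 h of reperfusion. The labels do not give the hemisphere or region that was taken, nor say that each library is 1 animal, so p-values measure the spread between libraries, which may be technical. Library totals ran from 45425867 to 49686109 counts.

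In the brain, Ccl2, Ccl7 and Ccl12 draw monocytes through the receptor Ccr2, Ccl3 and Ccl4 draw monocytes and T cells (Ccl3 through Ccr1 among others), Cxcl1 and Cxcl2 draw neutrophils through Cxcr2, and Cxcl10 draws activated T cells through Cxcr3. Cxcl12 acts on Cxcr4 and is scavenged by Ackr3, and holds progenitors and leukocytes in place. Cx3cl1, or fractalkine, is a membrane-bound ligand made mostly by neurons, whose receptor Cx3cr1 is carried by microglia. Transcription of the inducible ligands is driven largely by NF-kB, joined by AP-1 and, for Cxcl10, by interferon-activated factors.

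All 8 inducible ligands had a higher mean after I/R than in sham, and both constitutive ligands stayed within the spread between libraries. In whole tissue, fewer cells of a type and less RNA per cell cannot be told apart. Ccl3 and Ccl4 had the largest ratios of mean level among the 10 with all libraries, 13.6-fold and 15.7-fold. Without sham replicate 2 these were 17.8-fold and 31.8-fold, and Cxcl10, then left with 1 sham count, ranked above both. In limma-voom Cxcl10 also ranked above Ccl3, at log2 fold changes of 3.49 and 3.35. Counts in sham libraries were low and uneven, and sham replicate 2 carried more of each inducible ligand than the other sham libraries. None of the 10 ligands passed an adjusted p of 0.05 over the 40170 rows tested (edgeR quasi-likelihood test), where 0.00249% of rows were called higher. At an unadjusted p under 0.05, edgeR counted 5 of the 10 ligands, Ccl3, Ccl4, Cxcl1, Cxcl2 and Cxcl10, all higher, against 8.73% of all rows. Every I/R library lay above every sham library for 6 of the 8 inducible ligands and for neither constitutive ligand, against 14% of all rows. No ligand had every I/R library below every sham library, against 6.99% of rows. The median log2 fold change was 2.33 for the inducible ligands, 0.07 for the constitutive ligands and 0.02 for all rows tested. Of the 8 inducible ligands, 7 had fewer than 3 sham libraries at the low-count filter level and were tested only because of their I/R libraries. These counts and medians therefore describe the ligands and support nothing further.

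The ligand genes lie in clusters, given here in mm10. Ccl2 (82035577 to 82037452), Ccl7 (82045712 to 82047523) and Ccl12 (82101845 to 82103399) follow each other on the plus strand of chromosome 11, with 8259 bases between the first pair. Ccl3 (83647843 to 83649378, minus strand) and Ccl4 (83662584 to 83664683, plus strand) lie on the same chromosome, 13205 bases apart. Cxcl1 (90891245 to 90893115) and Cxcl2 (90903899 to 90905938) are neighbours on the plus strand of chromosome 5, 10783 bases apart, and Cxcl10 (92346639 to 92348889, minus strand) is on the same chromosome. Cxcl12 is on chromosome 6 (117168535 to 117181368) and Cx3cl1 on chromosome 8 (94772180 to 94782426). Each row covers a whole gene, so the values do not separate exons or isoforms. Close relatives within a cluster share sequence, and no source used here says how the authors counted reads that match more than 1 gene.

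RefSeq promoter sequences of GRCm38.p6 were matched for 7 of the 10 ligands, Ccl3, Ccl12, Cxcl1, Cxcl2, Cxcl10, Cxcl12 and Cx3cl1. The 250 bases before the start site are shown for the 4 inducible ligands that hold an NF-kB-like motif and, for contrast, for the inducible Ccl3, which has no NF-kB-like match in this window, and the constitutive Cxcl12, which holds none of the motifs searched. Each is written 5′ to 3′ on the gene's strand, from chr5:90890995-90891244 (plus strand) for Cxcl1, chr5:90903649-90903898 (plus) for Cxcl2, chr5:92348890-92349139 (minus) for Cxcl10, chr11:82101595-82101844 (plus) for Ccl12, chr11:83649379-83649628 (minus) for Ccl3 and chr6:117168285-117168534 (plus) for Cxcl12. Capitals mark matches to the motifs searched.
Cxcl1: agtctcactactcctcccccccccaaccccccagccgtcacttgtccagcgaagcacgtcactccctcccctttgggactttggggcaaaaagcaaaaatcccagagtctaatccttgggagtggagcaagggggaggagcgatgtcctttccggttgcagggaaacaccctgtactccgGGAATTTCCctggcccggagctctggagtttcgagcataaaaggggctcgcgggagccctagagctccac
Cxcl2: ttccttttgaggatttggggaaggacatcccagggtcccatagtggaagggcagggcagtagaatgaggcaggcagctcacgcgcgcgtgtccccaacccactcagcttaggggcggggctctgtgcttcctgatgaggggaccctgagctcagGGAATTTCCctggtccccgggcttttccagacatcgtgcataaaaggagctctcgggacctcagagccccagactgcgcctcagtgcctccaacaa
Cxcl10: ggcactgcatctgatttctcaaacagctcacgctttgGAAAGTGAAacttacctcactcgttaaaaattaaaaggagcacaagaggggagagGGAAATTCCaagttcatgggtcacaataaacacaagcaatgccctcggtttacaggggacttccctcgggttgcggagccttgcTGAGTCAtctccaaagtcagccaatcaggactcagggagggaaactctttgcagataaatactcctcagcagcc
Ccl12: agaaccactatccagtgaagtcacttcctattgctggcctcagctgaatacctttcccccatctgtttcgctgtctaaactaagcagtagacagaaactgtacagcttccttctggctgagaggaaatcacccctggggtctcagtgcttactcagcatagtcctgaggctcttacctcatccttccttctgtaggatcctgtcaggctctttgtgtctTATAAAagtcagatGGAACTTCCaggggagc
Ccl3: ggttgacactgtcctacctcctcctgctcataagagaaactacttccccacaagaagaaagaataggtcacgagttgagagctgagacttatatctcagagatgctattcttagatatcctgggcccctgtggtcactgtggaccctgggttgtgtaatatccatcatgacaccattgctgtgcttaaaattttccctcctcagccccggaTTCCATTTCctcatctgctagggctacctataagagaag
Cxcl12: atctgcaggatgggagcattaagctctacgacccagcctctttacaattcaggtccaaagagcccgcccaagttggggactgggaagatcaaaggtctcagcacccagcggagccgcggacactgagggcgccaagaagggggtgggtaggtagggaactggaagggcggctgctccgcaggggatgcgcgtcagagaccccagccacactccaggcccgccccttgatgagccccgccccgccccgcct

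The motifs were GGANNTTCC (NF-kB-like), TGANTCA (AP-1-like), GAAANNGAA (like the interferon-stimulated response element) and TGACGTCA (cyclic AMP response element), each on both strands, and TATAAA on the coding strand. GGANNTTCC, which can match both strands at once, was found in Cxcl1, Cxcl2, Cxcl10 and Ccl12 and in 3.59% of the 32851 windows of this length in the table. It was not found in Ccl3, Cxcl12 or Cx3cl1, so it did not separate the inducible from the constitutive ligands. The longest run of letters shared by the Cxcl1 and Cxcl2 windows, GGGAATTTCCCTGG, contains it. This run began 71 bases before the start of Cxcl1 and 97 bases before the start of Cxcl2, and 2 of all windows held it. In Cxcl10 the NF-kB-like match began 158 bases before the start, beside an interferon-type match at 213 and an AP-1-like match at 74, and no matches overlapped. In Ccl12 it began 17 bases before the start and TATAAA began at 31. GAAANNGAA was also found in Ccl3, on the opposite strand, and in 7.13% of windows, and TGANTCA in 6.75%. TATAAA was found in Ccl12 and Cx3cl1 and in 7.59% of windows, and TGACGTCA in 0 of the 7 and in 1.55% of windows. A match is a run of letters, not a measured binding site.

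Ccl2, the main monocyte attractant of injured brain, had 1, 80 and 29 counts in sham replicates 1, 2 and 3, against 197, 104 and 123 in the I/R libraries. The groups did not overlap, but sham replicate 2 lay nearer to the lowest I/R library than to sham replicate 1. In CPM (the count over the library total, times 1000000) the means were 0.759 ± 0.833 in sham and 3.01 ± 0.937 in I/R (SD, n = 3 each). The log2 fold change was 1.93 ± 0.96 (SE; edgeR adjusted p = 0.405). Ccl7, a second Ccr2 ligand, had counts of 2, 46 and 7 in sham and 73, 30 and 79 in I/R. Its groups overlapped, since I/R replicate 2 lay below sham replicate 2, and its log2 fold change was 1.71 ± 0.93 (SE; edgeR adjusted p = 0.426). Ccl12, the mouse relative of Ccl2, had counts of 4, 32 and 3 in sham and 57, 14 and 14 in I/R. Here sham replicate 2 lay above I/R replicates 2 and 3, and the log2 fold change of 1.09 ± 0.93 (SE; edgeR adjusted p = 0.606) was 0.12 without I/R replicate 1 (adjusted p = 0.957). DESeq2 gave Ccl12 no adjusted p, and over the other alternatives that tested it the value was 0.280 to 0.957.

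Ccl3 and Ccl4, the macrophage inflammatory proteins released early by activated microglia, were low in sham and had the largest SDs in CPM of the inducible ligands after I/R. Counts of Ccl3 were 8, 16 and 9 in sham and 243, 33 and 160 in I/R. Counts of Ccl4 were 2, 30 and 13 in sham and 351, 82 and 254 in I/R. In both genes the groups did not overlap, and I/R replicate 2 was the lowest of its group by a wide margin. Ccl3 went from 0.226 ± 0.0930 to 3.08 ± 2.18 CPM (SD, n = 3 each), and the fitted log2 fold change was 3.70 ± 0.77 (SE; edgeR adjusted p = 0.162). Ccl4 went from 0.310 ± 0.294 to 4.87 ± 2.80 CPM (SD, n = 3 each), and the fitted log2 fold change was 3.91 ± 0.86 (SE; edgeR adjusted p = 0.184). These were the 2 ligands DESeq2 called, with adjusted p of 0.00303 and 0.0204, where it called 1.1% of the rows it adjusted higher. Without I/R replicate 2, edgeR called Ccl3 (log2 fold change 4.16, adjusted p = 0.00154) in a fit that called 0.078% of rows higher. Without sham replicate 1 its adjusted p was 0.506, the largest among the alternatives.

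Cxcl1 and Cxcl2, which carry the shared GGGAATTTCCCTGG run, bring neutrophils to inflamed vessels. Cxcl1 was the most abundant inducible ligand in sham, with counts of 26, 122 and 14, and had 280, 273 and 171 in I/R. Cxcl2 had counts of 8, 54 and 10 in sham and 199, 144 and 71 in I/R. The groups did not overlap for either gene, and unlike Ccl3 and Ccl4 the lowest I/R library was replicate 3. Cxcl1 averaged 1.11 ± 1.24 CPM in sham and 5.15 ± 1.20 CPM in I/R (SD, n = 3 each), and the fitted log2 fold change was 2.15 ± 0.79 (SE; edgeR adjusted p = 0.302). Cxcl2 averaged 0.496 ± 0.543 and 2.93 ± 1.28 CPM (SD, n = 3 each), and the fitted log2 fold change was 2.50 ± 0.76 (SE; edgeR adjusted p = 0.234). Without sham replicate 2 edgeR called both, Cxcl1 at a log2 fold change of 3.61 (adjusted p = 0.0189) and Cxcl2 at 3.94 (adjusted p = 0.0289), while 0.0799% of all rows were called higher. That library was the highest of sham for both genes, so leaving it out had to raise these folds. Over their alternatives the adjusted p ran from 0.0189 to 0.593 for Cxcl1 and from 0.0289 to 0.512 for Cxcl2.

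Cxcl10, the interferon-responsive T cell attractant, was the scarcest ligand, with counts of 0, 8 and 1 in sham and 15, 20 and 28 in I/R. The groups did not overlap, and replicate 3 was the highest of I/R. Summed over each group these were 9 counts (exact Poisson 95% interval 4.12 to 17.1, counting error only) and 63 counts (48.4 to 80.6). The log2 fold change was 2.77 ± 0.78 (SE; edgeR adjusted p = 0.184), and DESeq2 gave no adjusted p here either. The row lies inside the span of Art3 on the other strand, and since no source used here says that counting used strand, reads of the 2 genes cannot be told apart there. Art3 had 113, 116 and 116 counts in sham and 96, 108 and 115 in I/R.

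Cxcl12 had counts of 941, 971 and 1535 in sham and 825, 1317 and 1532 in I/R. In CPM, I/R replicate 1 was the lowest library at 17.0 and I/R replicate 3 the highest at 33.7, so the I/R libraries spanned those of sham. Its mean was 23.5 ± 6.87 CPM in sham and 26.4 ± 8.57 CPM in I/R (SD, n = 3 each), and the log2 difference of 0.11 had a 95% interval from −0.58 to 0.81 (edgeR adjusted p = 0.879). Cx3cl1 had counts of 14908, 12936 and 17143 in sham and 13732, 16073 and 15653 in I/R. Its groups overlapped as well, with sham replicates at both ends. Its mean was 306.5 ± 41.4 CPM in sham and 325.3 ± 36.9 CPM in I/R (SD, n = 3 each), and the log2 difference of 0.03 had a 95% interval from −0.23 to 0.29 (edgeR adjusted p = 0.919). A p above the threshold does not show that a level was the same, and these intervals leave room for a change of Cxcl12 larger than that of Cx3cl1.

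**Figure D1:**
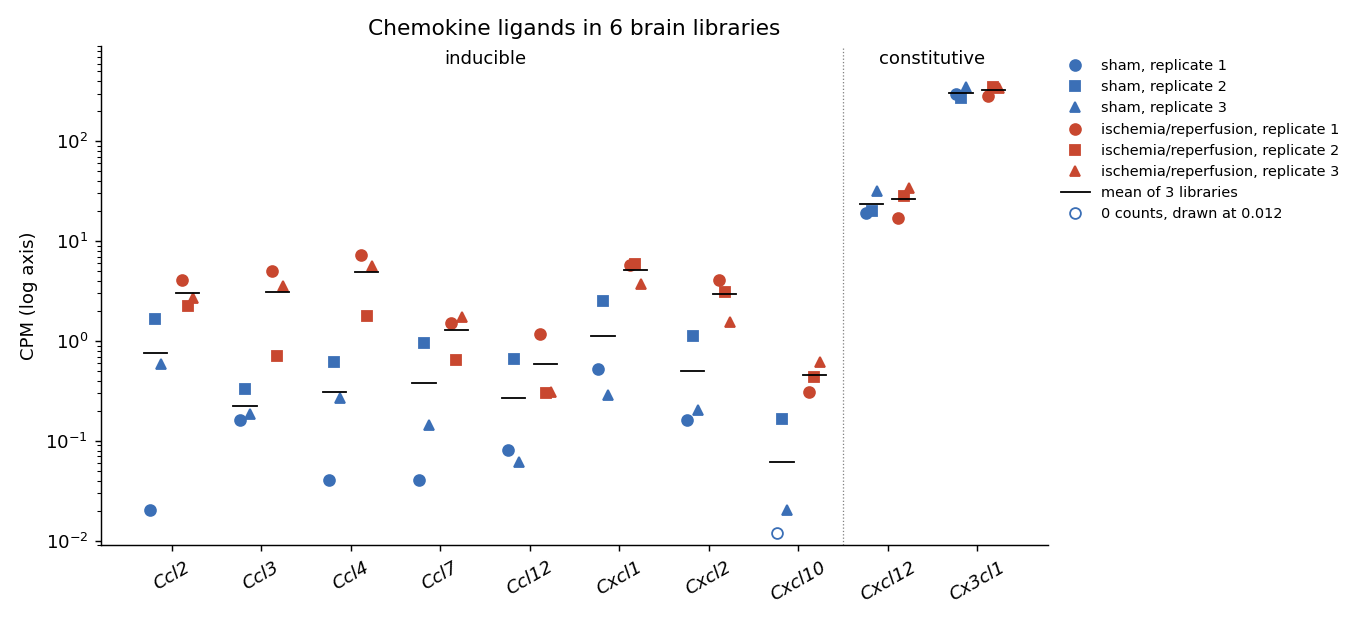
CPM of the 10 ligands (horizontal axis) on a log axis (vertical), with 1 point per library, shape for the replicate number and colour for the group; lines are means of 3 libraries. Sham replicate 2 (blue squares) is the highest sham library for 8 of the 8 inducible ligands, and the groups of Cxcl12 and Cx3cl1 overlap.

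Leaving out sham replicate 2 moved the median of the inducible ligands further than leaving out any other library. In it the inducible ligands stood 1.93-fold (Ccl3) to 16.2-fold (Cxcl10) above the mean of the other sham libraries, with a median of 6.20-fold, and 7 of the 8 were at least 2-fold above, as were 2.08% of all rows tested. The constitutive ligands did not follow, with Cxcl12 at 0.801 and Cx3cl1 at 0.826 times the other sham mean. Genes of acute signalling from the pathway lists were also high in that library. The cytokine gene Il1b was 8.51-fold above the other sham mean, Tnf 6.91-fold, the early gene Fos 6.87-fold and the cytokine feedback gene Socs3 3.99-fold. Their part in the ligand values was not tested. Without this library the median log2 fold change of the inducible ligands was 3.84, edgeR called Cxcl1 and Cxcl2, and 8 of the 10 ligands had an unadjusted p under 0.05, against 7.08% of rows. Each I/R library was above sham replicates 1 and 3 for all 8 inducible ligands, against 19.7% of rows. Sham replicate 2 was the highest sham library for each of them, so leaving it out had to raise their folds. These values without it describe the ligands and support nothing further. Against sham replicate 2 alone the I/R mean of Ccl3 was still 9.27-fold and of Ccl4 7.81-fold higher, while Ccl2 was 1.81-fold, Ccl7 1.36-fold and Ccl12 0.895-fold.

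**Figure D2:**
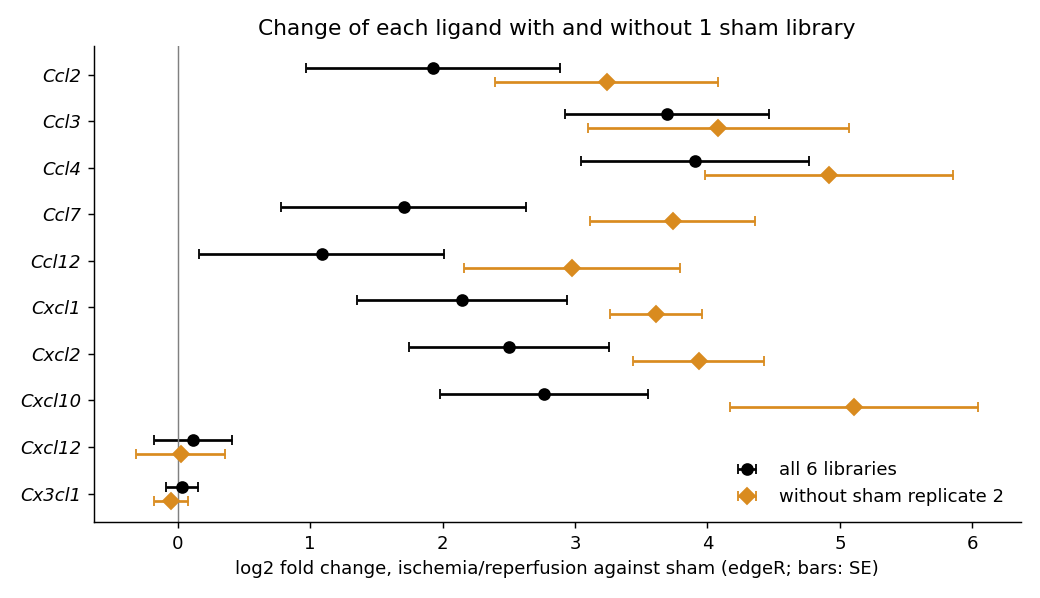
Log2 fold change of each ligand, I/R against sham (horizontal axis, edgeR, bars are SE), from all 6 libraries (black) and without sham replicate 2 (orange). The 8 inducible ligands move to the right without that library, Cxcl1 from 2.15 to 3.61, while Cxcl12 and Cx3cl1 stay near 0.

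Levels of different genes were compared per length, as RPKM (CPM per kilobase of row). In sham the order of mean RPKM was Cx3cl1, Cxcl12, Cxcl1, Ccl2, Ccl12, Ccl7, Ccl4, Cxcl2, Ccl3 and Cxcl10. Cx3cl1 at 97.5 ± 13.2 RPKM lay apart from Cxcl12 at 3.28 ± 0.960 (SD, n = 3 each), and Ccl3 at 0.286 ± 0.118 lay apart from Cxcl10 at 0.0566 ± 0.0824, while all other neighbours overlapped between libraries. After I/R the order was Cx3cl1, Ccl4, Cxcl1, Ccl3, Ccl2, Cxcl12, Cxcl2, Ccl7, Ccl12 and Cxcl10. Ccl4 was seventh in sham and stood next to Cx3cl1 after I/R, at 7.37 ± 4.24 RPKM (SD, n = 3). Only Cx3cl1 (103.5 ± 11.7 RPKM, SD, n = 3) and Cxcl10 (0.412 ± 0.141 RPKM, SD, n = 3) were separate from their neighbours in that order. For Cxcl10 the margin was narrow, with its highest I/R library at 0.560 RPKM and the lowest of Ccl12 at 0.566 RPKM. The summed RPKM of the 8 inducible ligands was 1.19, 9.72 and 2.18 in sham replicates 1, 2 and 3 and 36.5, 17.3 and 25.0 in I/R. As a percentage of Cx3cl1 in the same library this was 1.25%, 11.4% and 1.95% in sham and 40.6%, 15.6% and 22.8% in I/R, so fractalkine transcripts remained the most abundant of the 10 in each library.

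The make-up of the inducible ligands differed between I/R libraries. Ccl3 and Ccl4 together were 47.3%, 20.8% and 51.7% of the summed RPKM in replicates 1, 2 and 3, and Cxcl1 and Cxcl2 together 27.0%, 52.7% and 21.6%. The ratio of Ccl3 and Ccl4 to the neutrophil attractants was 0.395 in I/R replicate 2, against 1.75 and 2.39 in I/R replicates 1 and 3. Sham replicates 1 and 2 had ratios of 0.378 and 0.368, close to that of I/R replicate 2, and sham replicate 3 had 1.30. The Ccr2 ligands Ccl2, Ccl7 and Ccl12 took nearly the same share in all 3, 24.9%, 24.2% and 24.4%. In sham the same 3 genes took 18.9%, 46.3% and 47.3%, from far fewer counts. Replicate 1 was the highest I/R library for 5 of the 8 inducible ligands, replicate 3 for Ccl7 and Cxcl10, and replicate 2 for Cxcl1, and replicate 2 was the lowest for 5.

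**Figure D3:**
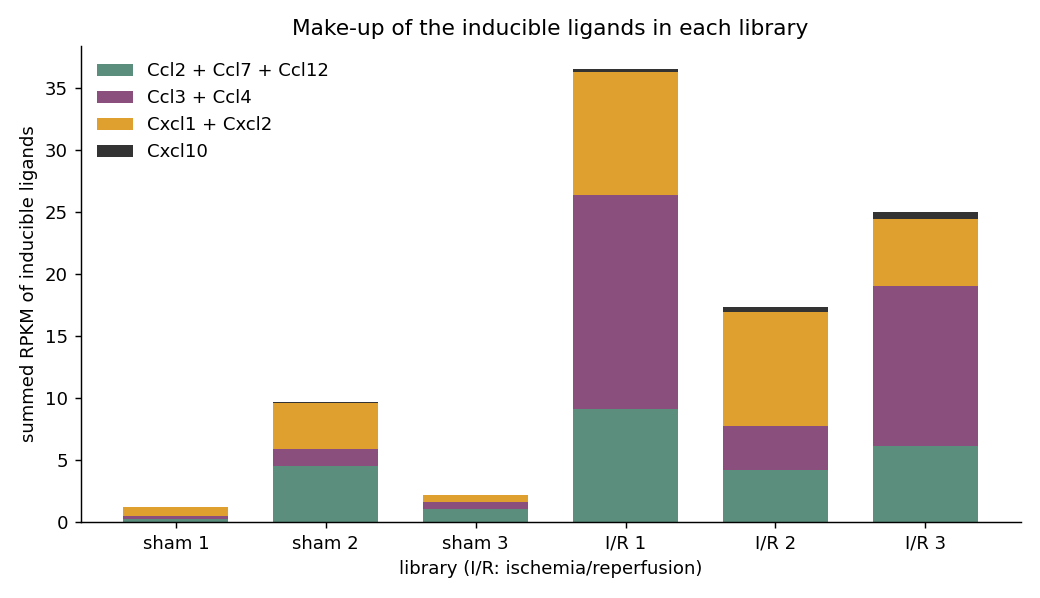
Summed RPKM of the 8 inducible ligands (vertical axis) in each of the 6 libraries (horizontal axis), stacked by receptor group. Ischemia/reperfusion replicate 1 reaches 36.5, and in replicate 2 the Cxcl1 and Cxcl2 segment is larger than that of Ccl3 and Ccl4.

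Receptors of the ligands were measured in the same libraries, and 0 of the 10 tested of 18 passed over all rows (edgeR), with 1 higher at an unadjusted p under 0.05, a share close to the 8.73% of all rows. Cx3cr1, the microglial fractalkine receptor, had counts of 563, 304 and 560 in sham and 770, 1244 and 1044 in I/R, and its groups did not overlap. Its mean went from 9.70 ± 2.93 to 21.9 ± 5.63 CPM (SD, n = 3 each), and the fitted log2 fold change was 1.13 ± 0.27 (SE; edgeR adjusted p = 0.168, DESeq2 adjusted p = 0.00069), beside a ligand at 0.03. Sham replicate 2, high in inducible ligands, was the lowest library for this receptor. Cxcr2, the neutrophil receptor of Cxcl1 and Cxcl2, had counts of 26, 34 and 10 in sham and 23, 52 and 66 in I/R, and the groups overlapped (log2 fold change 1.03 ± 0.49 SE; edgeR adjusted p = 0.344). Ccr1 had 46, 83 and 23 counts in sham and 110, 95 and 62 in I/R (edgeR adjusted p = 0.367). Ccr2, which marks inflammatory monocytes, had 29, 56 and 12 and then 41, 48 and 10 counts, with a log2 fold change of 0.03 (edgeR adjusted p = 0.988). Ccr1 and Ccr2 were each highest among sham libraries in replicate 2, as the inducible ligands were, and their groups overlapped. Cxcr3 had at most 5 counts in any library and was not tested. Cxcr4 had 91, 70 and 73 counts in sham and 90, 99 and 116 in I/R (log2 fold change 0.40 ± 0.22 SE; edgeR adjusted p = 0.400). In CPM its groups did not overlap, by a narrow margin of 1.83 against 1.85. The Cxcl12 scavenger Ackr3, listed as Cxcr7, had a mean of 12.6 ± 1.52 CPM in sham and 12.2 ± 4.36 CPM in I/R (SD, n = 3 each). Of the 5 atypical receptors tested, none had an unadjusted p under 0.05 or an adjusted call in edgeR. The smallest adjusted p among them was that of Ccrl2, 0.553, and Darc and Ccrl1 (now Ackr1 and Ackr4) had log2 fold changes of −0.02 and 0.29.

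**Figure D4:**
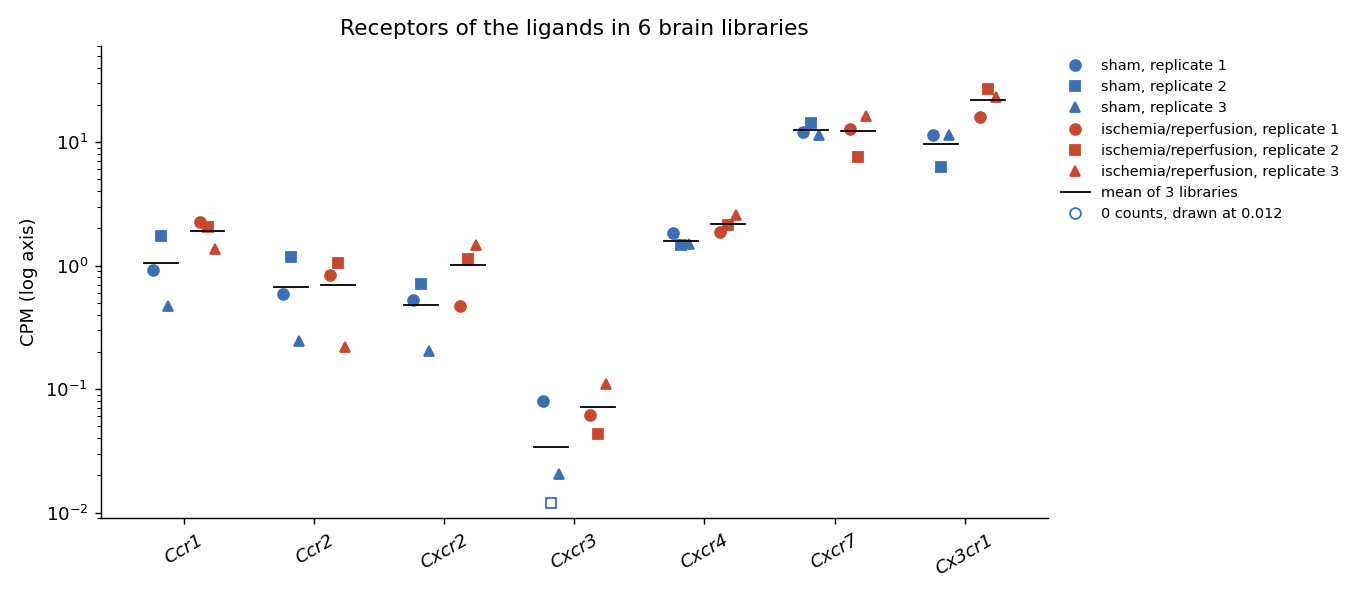
CPM of 7 chemokine receptors (horizontal axis) on a log axis (vertical), with 1 point per library and lines for means of 3 libraries. Cx3cr1 separates the groups, from 9.70 to 21.9 CPM in the mean, while Ccr1, Ccr2 and Cxcr2 overlap and Cxcr3 stays at 5 counts or fewer.

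Of 27 other chemokine ligands 14 were tested, and 0 passed over all rows (edgeR), while 3 ligands were higher and 1 was lower by the unadjusted p at 0.05, against 8.73% and 6.9% of rows. The median log2 fold change of the 14 was 0.30. Ccl11 and Ccl22, counted among the higher, had fewer than 3 sham libraries at the filter level of 0.207 CPM. They were tested only because of their I/R libraries, so this count supports nothing further. Ccl11, the eosinophil attractant encoded between Ccl7 and Ccl12, had counts of 3, 12 and 1 in sham and 74, 17 and 17 in I/R, and its highest libraries in each group, sham replicate 2 and I/R replicate 1, were those of Ccl12 (log2 fold change 2.70 ± 0.83 SE; edgeR adjusted p = 0.212). Ccl22 had 5, 4 and 8 counts in sham and 17, 18 and 18 in I/R (edgeR adjusted p = 0.188), with little spread within I/R. Cxcl16, a membrane-bound ligand of Cxcr6, had 41, 52 and 35 and then 152, 55 and 76 (edgeR adjusted p = 0.199). Ccl17, which shares the receptor Ccr4 with Ccl22, was the 1 lower, from 2.69 ± 0.616 to 1.46 ± 0.450 CPM (SD, n = 3 each), and the fitted log2 fold change was −0.94 ± 0.27 (SE; edgeR adjusted p = 0.183).

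Genes that drive or restrain chemokine transcription were read from pathway lists. Of 17 inducers 16 were tested, 15 of them with a higher fitted level in I/R, against 53.1% of all rows, and their median log2 fold change was 0.39. None passed over all rows (edgeR), and by the unadjusted p at 0.05 there were 3 higher, Jun, Rel and Tnf, and 0 lower, against 8.73% and 6.9% of rows. Jun, a subunit of AP-1, averaged 51.4 ± 7.66 CPM in sham and 125.5 ± 37.8 CPM in I/R (SD, n = 3 each; edgeR adjusted p = 0.148), and DESeq2 called it (adjusted p = 1.32e-06). Rel, the NF-kB subunit c-Rel, averaged 1.37 ± 0.545 and 2.45 ± 0.683 CPM (SD, n = 3 each; edgeR adjusted p = 0.270). Rela, the main activating subunit, had a log2 fold change of 0.27 ± 0.13 (SE; edgeR adjusted p = 0.350). Tnf, a cytokine that induces most of these ligands, had counts of 4, 27 and 4 in sham and 110, 20 and 36 in I/R, so that replicate 2 of each group lay out of order (edgeR adjusted p = 0.305). Tnf, Il1b and Il6 each had fewer than 3 sham libraries at the filter level of 0.207 CPM. Without their I/R libraries they would not have been tested, so the counts and median of the inducers support nothing further. Of the 10 genes of decay and feedback control, 7 had a higher fitted level in I/R (53.1% of all rows) and 3 had an unadjusted p under 0.05, all higher (8.73% of rows), with a median log2 fold change of 0.39. Zfp36, which encodes tristetraprolin, a destabiliser of cytokine messages, averaged 4.14 ± 1.74 and 9.33 ± 2.92 CPM (SD, n = 3 each; edgeR adjusted p = 0.202), and DESeq2 called it as well (adjusted p = 0.0109). Zc3h12a, which encodes the ribonuclease Regnase-1, averaged 0.640 ± 0.106 and 1.17 ± 0.0200 CPM, and Nfkbiz, a nuclear cofactor of NF-kB, 6.62 ± 2.07 and 11.2 ± 1.61 CPM (SD, n = 3 each; edgeR adjusted p = 0.218 and 0.199). Tnfaip3, an NF-kB feedback inhibitor, had a log2 fold change of 0.60 ± 0.31 (SE; edgeR adjusted p = 0.399). Of the 6 proteases that cleave chemokines, none had an unadjusted p under 0.05 or an adjusted call in edgeR. Adam10 and Adam17, which shed Cx3cl1 from the membrane, had log2 fold changes of −0.06 and 0.13. Dpp4, which inactivates Cxcl12, and Mmp2 had 0.29 and 0.26.

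Markers of cells that make or follow these ligands were summed in CPM per library. Neutrophil markers summed to 5.20 to 8.33 in sham libraries and 10.6 to 17.2 in I/R libraries, and of 6 tested 4 were higher at an unadjusted p under 0.05 (edgeR; 8.73% of all rows were higher and 6.9% lower at that p), among them S100a8 (log2 fold change 1.11; DESeq2 adjusted p = 0.0211) and S100a9 (1.26; DESeq2 adjusted p = 0.00753). The highest sham sum lay below the lowest I/R sum for these markers. Microglia markers ranged from 189 to 207 and from 202 to 242, with 2 of 10 higher at that p, Sall1 and Aif1, while the abundant Csf1r had a log2 fold change of 0.16. Monocyte and macrophage markers ranged from 64.4 to 71.7 and from 66.5 to 72.8, with 0 of 6, and the abundant Vcan and Fn1 are also made by brain cells. T and NK cell markers ranged from 1.41 to 3.34 and from 3.10 to 6.32, with 1 of 2 (Lck). Cd4 (mean 1.16 CPM in sham and 2.21 in I/R) and Lck (0.933 and 1.47) weighed most in this sum. The groups of Cd4 overlapped, and Cd3d, Cd3e and Cd3g had at most 5 counts in any library and were not tested. Erythroid markers ranged from 144 to 261 and from 201 to 313, with 0 of 5. Endothelial markers ranged from 212 to 216 and from 215 to 249, with 2 of 10 higher (Kdr and Emcn). Markers of meninges and fibroblasts ranged from 563 to 690 and from 516 to 580, with 3 of 10 lower (Dcn, Slc6a13 and Ptgds). Neuronal markers ranged from 4279 to 4319 and from 3985 to 4537, with 2 of 10 lower (Tubb3 and Stmn2). Astrocyte markers ranged from 5543 to 5579 and from 4843 to 5327, so that their lowest sham sum lay above the highest I/R sum. Abundant rows weigh most in this sum. From sham to I/R the mean CPM went from 1844 to 1520 for Glul and from 796 to 635 for Aldoc, but from 1875 to 1961 for Slc1a2. Slc1a2, Gfap and Sox9 were the 3 markers with a positive log2 fold change. Of 10 astrocyte markers 3 were lower at that p, Aldoc, Glul and Gjb6, a gap junction gene of astrocytes (log2 fold change −0.64; DESeq2 adjusted p = 0.00318). The neuronal genes Snap25 and Syt1 and the astrocyte gene Slc1a2 were each at 776 CPM or more in every library. Choroid plexus markers summed to 557 to 774 in sham libraries, and in I/R libraries they lay between 22.1 (replicate 2) and 1218 (replicate 3), with 1 of 8 lower (Kcnj13). No matched marker in these lists was at 0 in all libraries. The part of these cells in the ligand values was not tested.

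By Pearson's r over the 6 libraries, among 14445 other gene rows of at least 1 CPM, the rows most like the mean profile of the inducible ligands were Sik2 (0.995), Fyb (0.994), Neat1 (0.994), Hnrnph3 (0.991) and Nfkbiz (0.987). That profile, on the centred log2 scale, was −2.53, 0.23 and −1.73 in sham and 1.86, 0.83 and 1.34 in I/R, so each of these genes also had its highest sham value in replicate 2 and its lowest I/R value in replicate 2. The rows most like Cxcl12 were Bsg (0.987), Nrsn1 (0.986), Cox6a1 (0.981), Igfbp5 (0.980) and Slc35f2 (0.978). The rows most like Cx3cl1 were Rgs7bp (0.994), 4930565N06Rik (0.976), Map3k10 (0.974), Gpr34 (0.971) and Capn3 (0.970). Each list holds the 5 highest of 14445 values over 6 points, so a high r follows in part from the choice. For this reason, and since the points share each library's tissue make-up, no p is given.

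The authors' deposited table listed 9 of the 10 ligands higher with a q-value under 0.05, all but Ccl12 (q = 0.0523), beside 14.7% of its rows. In the authors' deposited table Cx3cl1 had a q-value of 1.25e-05 at a log2 fold change of 0.09, and Cxcl12 one of 0.0333 at 0.17, both for genes whose libraries overlap between the groups. For Ccl2 the authors' deposited table gave 2.1e-14, where sham libraries ranged from 1 to 80 counts.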

How the data were processed

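The authors deposited raw counts per row, RPKM values and row lengths for 6 libraries, and a table of their comparison. Per the submitters' processing notes the build was mm10. No source used here names the aligner, the counter, the annotation or a strand setting. The deposited RPKM values equalled CPM per kilobase of row (tolerance 0.001). The deposited comparison holds mean RPKM, a log2 fold change, p-values and q-values from a test that no source used here names. The deposited row length, another value, was used as given.

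Library totals were 45425867 to 49686109 counts, so that 3 counts, a floor for counting error only, were 0.0604 to 0.0660 CPM. Rows with 10 counts (0.207 CPM) in 3 libraries were fitted with edgeR 4.0.16 in R 4.3.3 (TMM factors, robust quasi-likelihood F test, two-sided) and adjusted by Benjamini-Hochberg over 40170 rows at 0.05. SE is the log2 fold change over the square root of F. CPM uses the plain library total. The scripts were tested on simulated data. Alternatives were other scaling factors, filters, rows and dispersion estimation, DESeq2 1.42.0, limma-voom (limma 3.58.1), the replicate number as a block, and leaving out each library. Replicates differed by more than sampling noise.

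The ligands, lists and tests were chosen with earlier results of these data known. Named genes are the ligands, the 5 most alike rows and, of each pathway list, up to 4 members with the smallest p. Of each cell type list they are up to 2 with the smallest p and the most abundant markers. Ccr2, Cxcr3, Il1b, Il6, Fos, Socs3, Cd3d, Cd3e, Cd3g and the letters of the promoter motifs were chosen after values were seen. Of 177 other list members 175 matched a row, some by an older symbol, and 2 (Ly6g and Trbc2) were not analysed here.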

Additional observations from a re-analysis of the deposited data

How the results depend on the processing

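Over 15 alternatives, which were the 9 changes of method and the 6 fits without 1 library, each inducible ligand kept a positive log2 fold change wherever it was tested. Ccl7, Ccl12 and Cxcl10 were not tested with a mean of at least 1 CPM. Ccl2 ranged from 1.35 to 3.24, Ccl3 from 3.15 to 4.16, Ccl4 from 3.38 to 4.92, Ccl7 from 1.17 to 3.74, Ccl12 from 0.12 to 2.98, Cxcl1 from 1.68 to 3.61, Cxcl2 from 2.08 to 3.94 and Cxcl10 from 2.19 to 5.11. Their median was 3.84 without sham replicate 2 and 1.94 without sham replicate 1, the extremes of leaving out 1 library. Cxcl12 (0.11 with all libraries) had the opposite sign with sham replicate 1 left out (−0.022) or I/R replicate 3 left out (−0.094), and reached 0.36 with sham replicate 3 left out. Cx3cl1 (0.032) had the opposite sign when sham replicate 2 (−0.050), I/R replicate 2 (−0.035) or I/R replicate 3 (−0.0089) was left out. Ligands called were 0 in edgeR, 2 in DESeq2, and 0 to 2 when 1 library was left out. Of all rows edgeR called 1. It called 2 with upper-quartile factors, 77 with no low-count filter, 0 with a mean of at least 1 CPM, 0 on gene-symbol rows only and 4 without robust estimation. DESeq2 called 584 rows and limma-voom 4. Leaving out 1 library gave 0 to 1057 rows, the highest without I/R replicate 1. The cause of these differences was not tested. With the replicate number as a block edgeR called 0 rows and 0 ligands, and no ligand call changed. The labels tie the numbers to nothing shared, and same-numbered libraries deviated from their group means with correlations of −0.07, 0.03 and 0.11, so the numbers were not taken to pair the samples. Low sham counts, at most 8 for Cxcl10, limit the precision of the inducible folds.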

Other observations

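Clone rows at the same position repeated part of the ligand signal. A cDNA clone row on the strand of Ccl4 had counts of 2, 26 and 13 in sham and 396, 97 and 317 in I/R, beside 2, 30 and 13 and 351, 82 and 254 for Ccl4 itself. How reads that overlap both rows were assigned is in none of the sources used here. A clone row on the strand of Cxcl10 had 0, 8 and 0 and then 11, 16 and 11 counts. The chemokine gene Ccl9, which lies near Ccl3 on chromosome 11 and was named after its values were seen, had 80, 159 and 37 counts in sham and 757, 86 and 208 in I/R (log2 fold change 1.89 ± 1.01 SE; edgeR adjusted p = 0.443). Like Ccl3 it was highest in I/R replicate 1, and its replicate 2 lay below sham replicate 2.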
